A study of Saccharomyces cerevisiae with 12 samples.

Results

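The strain by tangeretin interaction is the tangeretin response of budding yeast lacking SGS1 minus the tangeretin response of the wild type (WT), measured for every detected transcript. It was taken from all 12 arrays of the 12 in the study, which form 4 groups of 3: each of the strains without and with tangeretin. All 6468 genes and other features that passed a detection filter were tested. The WT strain is YCL1071 and the sgs1Δ strain is YCL1098, each represented by 1 strain. Both are MATα and carry met15Δ0, ura3Δ0, his3Δ1, leu2Δ0 and trp1∆::HPH, together with the plasmid pRS414-GAL1-HO-TRP1. YCL1098 also carries sgs1∆::kanMX4. All 4 groups were kept for 4 h at 30 °C in medium without tryptophan and with 0.2% DMSO by volume, and the treated groups also received 30 µM tangeretin. Total RNA was extracted with hot phenol, converted to cDNA, labelled with Cy5 and hybridised to Phalanx OneArray oligonucleotide arrays with 1 colour. The probes do not tell HO or TRP1 RNA made from the plasmid from RNA made from a chromosome.

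Sgs1 is a DNA helicase of the RecQ family. Together with the topoisomerase Top3 and Rmi1 it takes apart joined DNA molecules that arise during recombination and replication, and cells without it recombine their DNA more often. Tangeretin is a methoxylated flavone from citrus peel. An interaction above 0 means that tangeretin moved a transcript further up, or less far down, in sgs1Δ than in WT, and an interaction below 0 means the reverse. It says nothing of the average response or of the difference between the untreated strains.

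The SGS1 probe read 108 to 120 raw intensity units on the WT control arrays and 151 to 169 on the WT tangeretin arrays. It read 4 to 7 on the 6 sgs1Δ arrays and was not detected on any of them. The median raw intensity of an array ran from 530 to 1530, and 88.3% to 95.6% of probes were detected. Treated arrays were brighter than control arrays by 0.46 on the log2 scale in WT and by 0.45 in sgs1Δ, so that the interaction of array brightness itself was -0.012. All 18 markers of α cells, a cells and haploid cells were detected on every array, although the strains are labelled MATα. The headers give the 3 arrays of a group one sample number, and the labels name no separate cultures. P-values may thus reflect only how repeated arrays of 1 RNA sample vary.

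A difference in tangeretin response between the 2 strains passed the test for a small share of features. That share depended on single arrays, as given below. Of the 6468 features, 79 (1.22%) had an interaction at an adjusted p under 0.05 in limma, which is called from here on. The response was higher in sgs1Δ for 40 of them (0.618% of features) and lower for 39 (0.603%). Among the higher ones were the unnamed open reading frame YGL072C, α-cell and mating genes, sulfate assimilation genes, the mitochondrial gene ATP8 and the membrane protein gene HSP30. Among the lower ones were the proteinase inhibitor gene PBI2, the endonuclease gene HO, the Golgi trafficking genes VPS53 and RGP1 and the copper transporter gene CTR1.

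The called interactions were modest in size. Their median absolute value was 0.78 on the log2 scale against 0.166 over all features, and 9 higher and 10 lower ones reached a log2 value of 1. Without adjustment, 1053 features (16.3%) had a p under 0.05 in limma, the background for counts of unadjusted p in the lists below. Interactions above 0 were found for 3391 of the 6468 features, the background for counts above 0 in the lists below. The shares called, 0.618% higher and 0.603% lower, are the background for counts of calls. In 71 of the 79 the fitted responses of the strains had opposite signs. Choosing features by a large difference of the 2 responses favours opposite signs, and the share over all features was not taken. The WT response alone passed the test for 37 of the 79 and the sgs1Δ response alone for 28. Over all features the WT response passed for 3.48% and the sgs1Δ response for 1.42%. The interaction is the difference of these responses on the same arrays. Choosing features by it thus favours called responses, and the contrast is no independent support. Both responses passed, in opposite directions, for ATP8 and VPS53, and neither passed for 12. These splits moved with the settings: the WT response was called for 39 of the 79, but for 5 of 196 with array brightness as a covariate, 2 of 12 without WT control 1 and 2 of 7 without WT control 2.

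Separation between single arrays was read from the same arrays that gave the calls, so it is no independent support for them. For 20 of the 40 higher features, all WT tangeretin arrays lay below all WT control arrays while all sgs1Δ tangeretin arrays lay above all sgs1Δ control arrays, a pattern found in 0.989% of all features. For 21 of the 39 lower features the reverse held, against 1.1% of all features. Both shares of all features include the called ones. YNL042W-B was called higher but was undetected on all WT arrays, so its interaction is not given. Its raw intensity was 5 to 15 in WT, 20 to 31 on sgs1Δ control arrays and 52 to 63 on sgs1Δ tangeretin arrays.

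**Figure D1:**
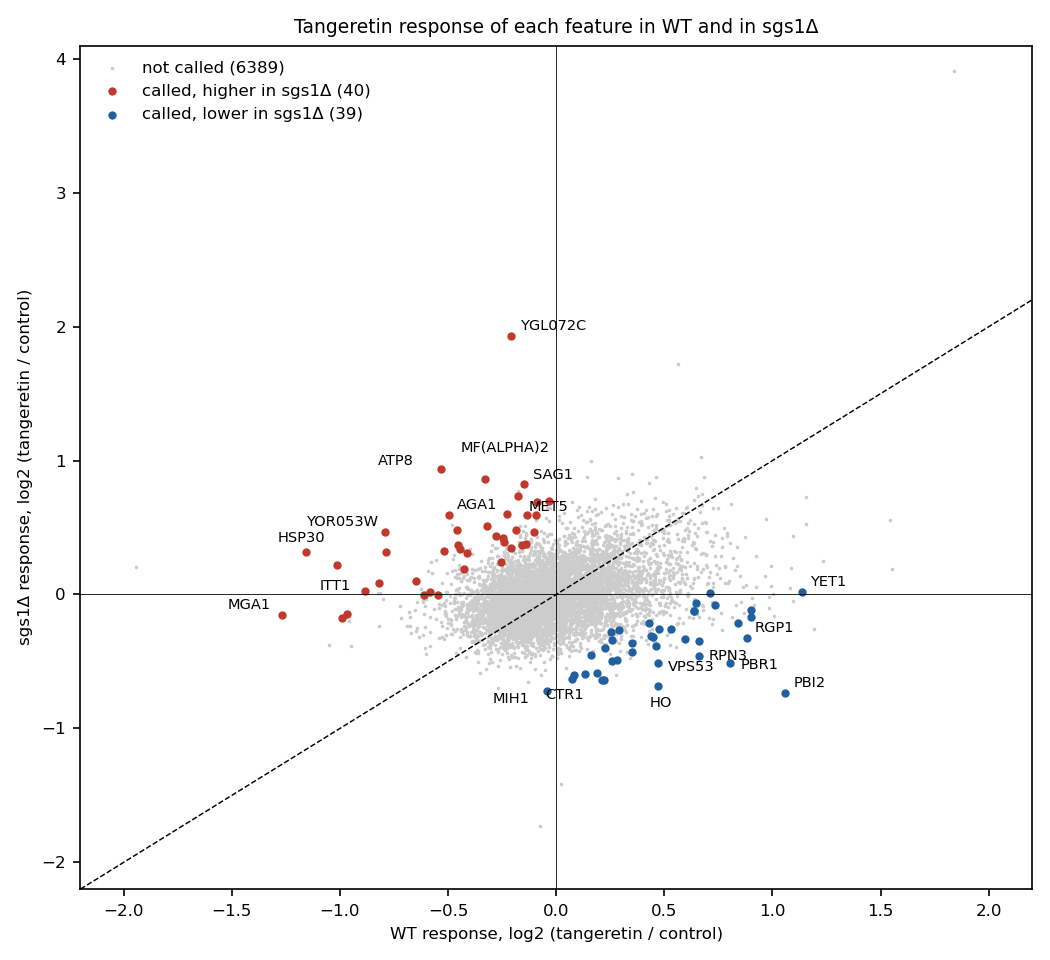
Each point is 1 of the 6468 features, with its tangeretin response in WT on the x axis and in sgs1Δ on the y axis, both as log2 of tangeretin over control from group means of 3 arrays. The dashed line marks equal responses; the 40 features called higher in sgs1Δ (red) lie above it and the 39 called lower (blue) lie below it, most of them in the quadrants where the responses have opposite signs.

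The number of calls depended on single arrays. It fell to 7 without WT control 2, 11 without WT tangeretin 2, 12 without WT control 1, 16 without sgs1Δ tangeretin 1, 18 without sgs1Δ control 3, 30 without sgs1Δ tangeretin 2, 35 without WT tangeretin 3 and 42 without sgs1Δ control 1. It rose to 159 without sgs1Δ control 2 and to 352 without WT control 3. All 79 interactions kept their sign in each of these fits. They were chosen from the same arrays for interactions large against their SE, so kept signs are no independent support. The call itself held without every single array for 7 genes, all of them higher in sgs1Δ: YGL072C, MF(ALPHA)2, SAG1, MET5, ATP8, HSP30 and ITT1. Levels on WT control 3 correlated at 0.9952 to 0.9966 with the WT tangeretin arrays. With WT control 1 and 2 they correlated at 0.9923 and 0.9918. Levels on sgs1Δ control 2 correlated at 0.9939 to 0.9962 with the sgs1Δ tangeretin arrays. With sgs1Δ control 1 and 3 they correlated at 0.9925 and 0.9943. Each was the brightest control array of its strain, at raw medians of 814 and 1344. The cause was not tested.

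YGL072C had the largest called interaction. It is an open reading frame listed only under its systematic name, numbered between HSF1, the gene of the heat shock transcription factor, and AFT1, the gene of an iron-responsive activator. The frame is not among the genes annotated in RefSeq R64, so its overlap with neighbours was not looked up. Which transcript its probe reads was not tested. In WT its log2 level was 10.27, 10.29 and 9.98 in control and 9.97, 9.86 and 10.10 with tangeretin. In sgs1Δ the control arrays gave 7.28, 7.03 and 7.07 and the treated arrays 9.17, 8.94 and 9.05. The WT groups overlapped, whereas the sgs1Δ groups were far apart, and all sgs1Δ arrays lay below all WT arrays. Tangeretin thus raised a transcript that was low in untreated sgs1Δ, by 1.93 on the log2 scale, and left it below the WT level. The interaction was 2.14 with an SE of 0.157, a 4.4-fold ratio between the strains' responses, at an adjusted p of 1.63e-05. The neighbours did not follow it: the interaction was -0.10 for HSF1 (adjusted p = 0.734) and -0.13 for AFT1 (adjusted p = 0.73).

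**Figure D2:**
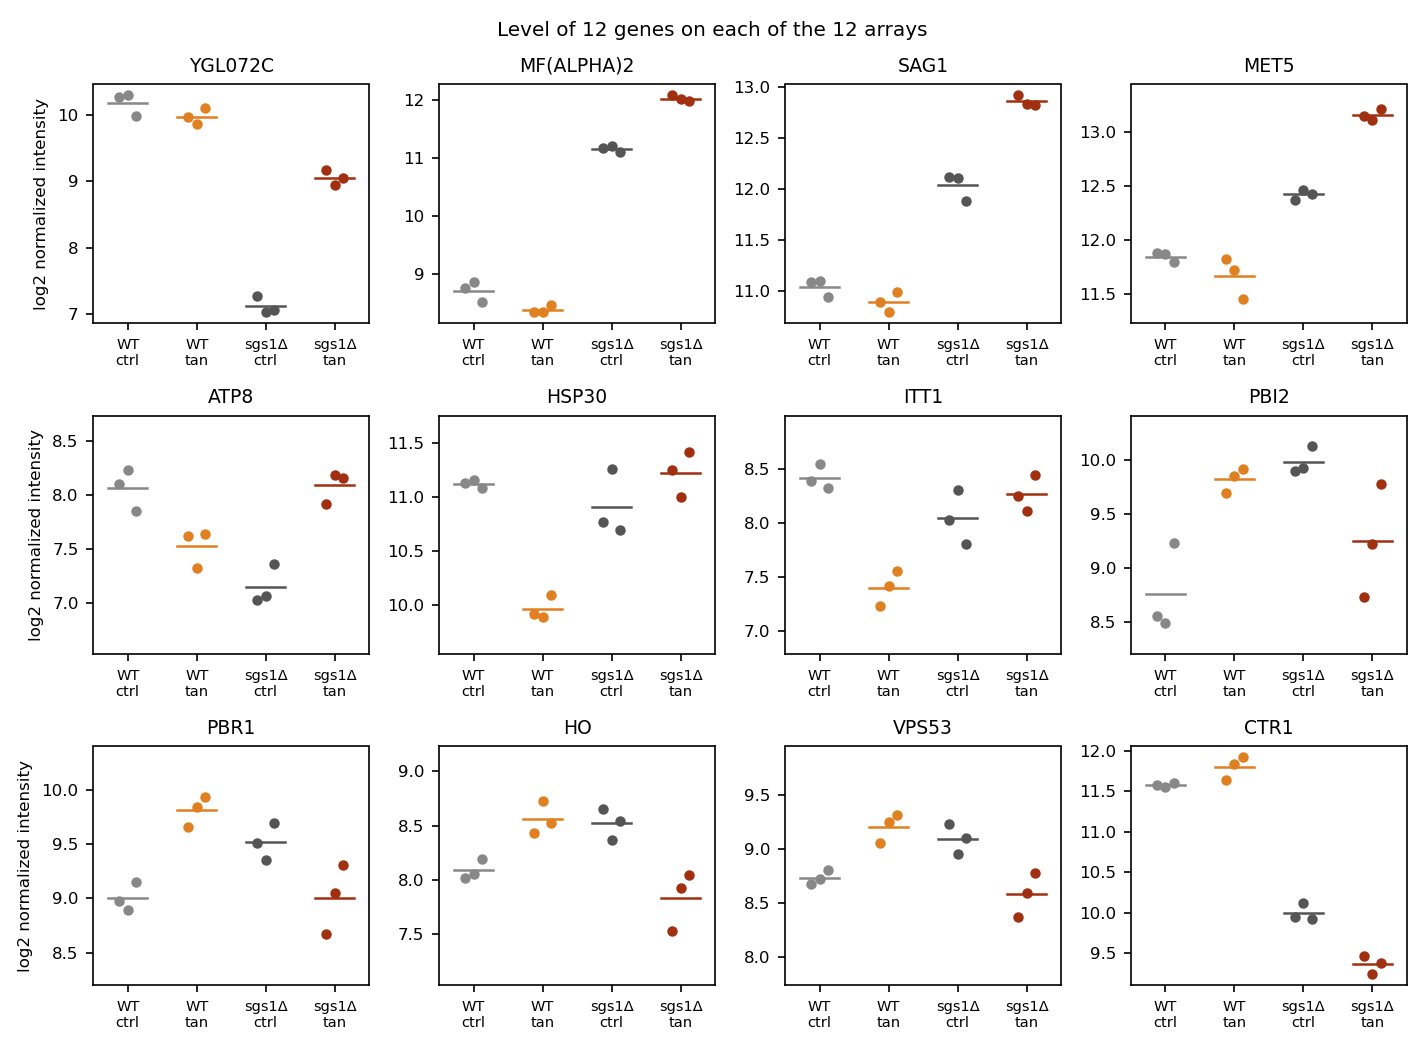
Log2 normalized intensity of 12 genes on each of the 12 arrays, 1 panel per gene with its own y axis; points are arrays, horizontal bars are means of 3 arrays, ctrl is control and tan is tangeretin. In the first 7 panels the step from control to tangeretin is higher in sgs1Δ than in WT, and in the last 5 it is lower, with YGL072C showing the largest step in sgs1Δ.

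On the α-cell and pheromone signalling lists all called interactions were in the higher direction. HO, described below, and PRR1, a pheromone response kinase gene on none of the lists, were called lower. PRR1, named after its values were seen, had -0.79 (adjusted p = 0.0379). In haploid yeast, α cells make α-factor and the agglutinin Sag1, while a cells make a-factor and the agglutinin built from Aga1 and Aga2. Of 5 α-cell genes tested, 2 were called higher and none lower, where 0.618% of all features were called higher. The median interaction of the list was 0.676 against 0.0138 over all features. MF(ALPHA)2, which encodes α-factor, read 8.76, 8.86 and 8.52 on WT control arrays and 8.35, 8.34 and 8.47 on WT tangeretin arrays. In sgs1Δ it read 11.17, 11.20 and 11.11 in control and 12.08, 12.01 and 11.98 with tangeretin. The treated arrays were all lower in WT and all higher in sgs1Δ, from a control level already far above WT. Its interaction was 1.19 with an SE of 0.133 (adjusted p = 0.00146).

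SAG1, the α-agglutinin gene, behaved alike in sgs1Δ. It read 11.08, 11.09 and 10.94 on WT control arrays and 10.89, 10.79 and 10.99 on WT tangeretin arrays, which overlapped. The sgs1Δ arrays gave 12.12, 12.11 and 11.88 in control and 12.92, 12.84 and 12.83 with tangeretin, without overlap. The interaction was 0.98 with an SE of 0.132 (adjusted p = 0.00513). The other α-cell genes missed the threshold, with interactions of 0.68 for the a-factor receptor gene STE3 (adjusted p = 0.06), 0.57 for the second α-factor gene MF(ALPHA)1 (adjusted p = 0.0732) and 0.16 for AFB1 (adjusted p = 0.643).

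None of the 7 a-cell genes was called by limma, and their median interaction was 0.32. An unadjusted p under 0.05 was found for 3 of them, against 16.3% of all features. All 7 were detected on every array; STE2, the α-factor receptor gene that defines a cells, had normalized responses of -0.16 in WT and 0.32 in sgs1Δ, with an interaction of 0.48 that missed the threshold (adjusted p = 0.227). The part of cell type composition in these results was not tested, and in bulk RNA more cells of a type and more RNA per cell cannot be told apart. AGA2 came closest, at 1.00 (adjusted p = 0.0617). The partner gene AGA1, which encodes the wall anchor of the a-agglutinin and is induced by pheromone, was called higher. It read 13.58, 13.51 and 13.01 on WT control arrays, 12.97, 12.94 and 12.70 on WT tangeretin arrays. The sgs1Δ arrays gave 12.21, 12.22 and 12.25 in control and 12.88, 12.76 and 12.81 when treated. Untreated WT was thus the highest group and untreated sgs1Δ the lowest, and with tangeretin the strains overlapped. The interaction of AGA1 was 1.09 with an SE of 0.185 (adjusted p = 0.0165).

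Of 21 pheromone signalling genes, 2 were called higher, AGA1 and the mating adhesin gene FIG2, against 0.618% of all features, and none lower. FIG2 had an interaction of 0.71 with an SE of 0.145 (adjusted p = 0.0358), with neither strain's own response passing the test. The list's median interaction was 0.0471, near that of all features, and DIG1 and DIG2, which encode inhibitors of the pathway's transcription factor Ste12, had values of -0.70 and -0.55 that missed the threshold. AGA1 lost its call without WT control 1, WT control 2, WT tangeretin 2 or sgs1Δ tangeretin 1, with interactions of 0.98 to 1.27 over the 12 omissions of 1 array. FIG2 lost its call without WT control 1 or 2, WT tangeretin 1 or 2, sgs1Δ control 3, or sgs1Δ tangeretin 1 or 2, at 0.63 to 0.78.

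Sulfate assimilation takes sulfate into the cell and reduces it to sulfide, which is built into homocysteine, the precursor of methionine and cysteine. Both strains carry met15Δ0 and so lack the enzyme that joins sulfide to homocysteine's precursor. All 10 tested genes of sulfate assimilation had interactions above 0, with a median of 0.659, and 3 were called higher: MET5, MET3 and SUL2. Over all features, 3391 of 6468 lay above 0 and 0.618% were called higher. In WT the list's median response to tangeretin was -0.0213, and in sgs1Δ it was 0.523.

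MET5 encodes the β subunit of sulfite reductase. It read 11.88, 11.87 and 11.79 on WT control arrays and 11.82, 11.72 and 11.46 on WT tangeretin arrays. The sgs1Δ arrays gave 12.37, 12.46 and 12.42 in control and 13.14, 13.11 and 13.21 when treated. The WT groups overlapped, and the treated sgs1Δ arrays stood above all others. The interaction was 0.91 with an SE of 0.135 (adjusted p = 0.0114). MET3, which encodes ATP sulfurylase, the first enzyme of the pathway, ran from 9.01 to 9.16 over the 6 WT arrays. It rose from 9.49, 9.91 and 9.60 to 10.38, 10.21 and 10.50 in sgs1Δ, an interaction of 0.73 with an SE of 0.156 (adjusted p = 0.0407).

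SUL2, one of the high-affinity sulfate permease genes, was dim and was detected on 1 WT control array and on all 9 others. It read 6.64, 6.58 and 6.60 on WT control arrays, then 6.41, 6.27 and 6.42 when treated, and in sgs1Δ 6.91, 7.04 and 6.77, then 7.32, 7.31 and 7.27 when treated. The treated arrays were all lower in WT and all higher in sgs1Δ. Its interaction was 0.64 with an SE of 0.122 (adjusted p = 0.0278).

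The remaining sulfate genes were not called. MET10, which encodes the α subunit of sulfite reductase, had an interaction of 0.73 (adjusted p = 0.0735), the permease gene SUL1 had 0.69 (adjusted p = 0.0764) and MET1, a gene of siroheme synthesis, had 0.68 (adjusted p = 0.0583). MET16, the PAPS reductase gene, had 0.51, MET14, the APS kinase gene, 0.18, and MET22 and MET8 0.08 each.

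Among 22 genes of methionine, cysteine and S-adenosylmethionine metabolism, 1 was called higher, against 0.618% of all features, and none lower. Of the 22, 19 lay above 0, against 3391 of all 6468 features, with a median of 0.191. The called gene was MET2, which encodes homoserine O-acetyltransferase and makes the acceptor for sulfide. It read 7.50 to 7.71 on WT control arrays and 7.39 to 7.56 on WT tangeretin arrays, which overlapped, and went from 8.40, 8.07 and 8.19 to 8.91, 8.89 and 8.64 in sgs1Δ. Its interaction was 0.73 with an SE of 0.153 (adjusted p = 0.0379). HOM3, the aspartate kinase gene, had 0.70 (adjusted p = 0.06) and SAM2, a gene of S-adenosylmethionine synthetase, had -0.59. MET17, the gene removed by met15Δ0, is 1 of the 22 and was undetected on all WT tangeretin arrays; the median without it was 0.172. Of 7 regulators of the sulfur genes none was called, and MET28, a cofactor of the activator Met4, had 0.62 (adjusted p = 0.0548).

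MET5 kept its call without every single array. MET3 kept it only without WT control 3 or sgs1Δ control 2, with interactions of 0.64 to 0.85 over the 12 omissions, and in 6 of 12 processing alternatives. MET2 kept it only without WT control 3 or sgs1Δ control 1, control 2 or tangeretin 3, at 0.66 to 0.82. SUL2 lost it without WT control 1 or 2, WT tangeretin 2, sgs1Δ control 1 or 3, or sgs1Δ tangeretin 1 or 2, at 0.57 to 0.70.

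ATP8, a mitochondrial gene for a subunit of the membrane part of ATP synthase, was the only gene called higher whose responses passed the test in both strains. It read 8.11, 8.23 and 7.85 on WT control arrays and 7.63, 7.32 and 7.64 on WT tangeretin arrays, a fall of 0.53 on average. The sgs1Δ arrays gave 7.03, 7.07 and 7.36 in control and 7.92, 8.19 and 8.16 with tangeretin, a rise of 0.93. The groups overlapped in neither strain, and the order of the strains was exchanged by the treatment. The interaction was 1.47 with an SE of 0.185 (adjusted p = 0.00393). It was the only called gene among 9 tested mitochondrial genes, 4 of which were undetected or at the scanner ceiling in at least 1 whole group. OLI1, which encodes another subunit of the same membrane part, had 0.51 (adjusted p = 0.0737), COX2 had 0.28, COX3 0.14 and COX1 0.01. None of the 36 nuclear genes of the respiratory chain was called, and their median was 0.129.

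HSP30 and ITT1 fell in WT, and their response in sgs1Δ did not pass the test. HSP30 encodes a stress-induced plasma membrane protein that restrains the proton pump Pma1. It read 11.13, 11.16 and 11.08 on WT control arrays and 9.92, 9.89 and 10.09 on WT tangeretin arrays. In sgs1Δ it read 10.77, 11.26 and 10.69 in control and 11.25, 11 and 11.41 with tangeretin, which overlapped. The treated WT arrays alone stood apart, lower than the other 9. The interaction was 1.47 with an SE of 0.199 (adjusted p = 0.00513).

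ITT1, a gene linked to translation termination, read 8.39, 8.55 and 8.32 on WT control arrays and 7.23, 7.42 and 7.56 on WT tangeretin arrays. Those of sgs1Δ gave 8.02, 8.30 and 7.80 in control and 8.25, 8.11 and 8.44 with tangeretin. As for HSP30, only the treated WT arrays stood apart. Its interaction was 1.24 with an SE of 0.188 (adjusted p = 0.0131).

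MGA1, a gene related in sequence to heat shock factor, fell in WT by 1.27, from 9.56, 9.59 and 9.03 to 8.32, 8.02 and 8.03. In sgs1Δ it read 8.57, 8.50 and 8.39 in control and 8.41, 8.16 and 8.41 with tangeretin, and the groups overlapped. Its interaction was 1.11 with an SE of 0.201 (adjusted p = 0.0213). Of 23 chaperone and heat shock genes, HSP30 and MGA1 were called higher, against 0.618% of all features, and the median interaction was 0.0125. SSE2, a chaperone gene not on the list and named after its values were seen, was called higher by limma at 0.79 (adjusted p = 0.0278). The list of 26 general stress genes driven by Msn2 and Msn4 had no called member. In this list 20 genes lay above 0, against 3391 of all 6468 features, with a median of 0.192. Its GRE1 had 0.67 (adjusted p = 0.0505) and YGP1 had -0.57 (adjusted p = 0.0567). MGA1 lost its call without WT control 1 or 2, WT tangeretin 2 or 3, sgs1Δ control 3 or sgs1Δ tangeretin 1, with interactions of 1.01 to 1.30.

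Other genes called higher with a fall in WT included TPO2, CIP1 and the unnamed frames YOR053W and YML099W-A. TPO2, a polyamine exporter gene of the plasma membrane, read 11.47, 11.44 and 11.15 on WT control arrays and 10.56, 10.46 and 10.59 on WT tangeretin arrays, and lay between 10.99 and 11.31 on all sgs1Δ arrays. Its interaction was 0.91 with an SE of 0.153 (adjusted p = 0.0164). Its close paralog TPO3, whose RNA might bind the same probe, had 0.18 (adjusted p = 0.621). CIP1, which encodes an inhibitor of the cyclin-dependent kinase, went from 13.02, 12.97 and 12.58 to 12.23, 11.92 and 11.76 in WT and lay between 12.57 and 12.83 in sgs1Δ. Its interaction was 0.91 with an SE of 0.196 (adjusted p = 0.0408).

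YOR053W went from 7.58, 7.69 and 7.54 to 6.56, 7.27 and 6.61 in WT and from 6.75, 6.88 and 6.60 to 7.13, 7.19 and 7.31 in sgs1Δ, without overlap in either strain. Its interaction was 1.26 with an SE of 0.219 (adjusted p = 0.0171). YML099W-A had the same pattern at an interaction of 1.11 with an SE of 0.179 (adjusted p = 0.0146). Neither frame is among the genes annotated in RefSeq R64, and which transcript each probe reads was not tested. The numbered neighbours of the frames, TMC1, VHS3, TAF13, ARG81 and TSL1, had interactions between -0.36 and 0.39, none of them called. DPA10 had 0.94 with an SE of 0.198 (adjusted p = 0.0379), with neither strain's own response passing.

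TPO2 lost its call without WT control 1 or 2, WT tangeretin 2 or sgs1Δ tangeretin 1, at 0.84 to 1.01. YOR053W lost it without WT control 1 or 2, sgs1Δ control 3 or sgs1Δ tangeretin 1, at 1.13 to 1.49, and YML099W-A without WT control 1 or 2, at 0.99 to 1.21. CIP1 and DPA10 kept it only without WT control 3, WT tangeretin 1 or sgs1Δ control 2, at 0.81 to 1.05 and 0.85 to 1.13.

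Of 25 multidrug resistance genes, 2 were called higher, TPO2 and PDR12, against 0.618% of all features, with a list median of 0.0778. PDR12, which encodes an exporter of weak acids, read 13.25, 13.29 and 13.17 then 12.93, 12.96 and 13.07 in WT, and 11.70, 11.70 and 11.72 then 12.17, 12.13 and 12.09 in sgs1Δ, so that treatment narrowed the gap between the strains. Its interaction was 0.67 with an SE of 0.109 (adjusted p = 0.0146). The drug exporter gene PDR5 rose in both strains, by 1.16 in WT and 0.73 in sgs1Δ, and its interaction of -0.43 missed the threshold (adjusted p = 0.354). For SNQ2, another drug exporter gene, the interaction was 0.08 (adjusted p = 0.869). AQR1, which encodes an exporter of acids and drugs, had -1.45 with an SE of 0.403 (adjusted p = 0.0942).

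Of 21 iron genes, FIT2, which encodes a wall mannoprotein that holds siderophores, was called higher at 0.67 with an SE of 0.129 (adjusted p = 0.0278). It read 9.65, 9.66 and 9.52 then 9.47, 9.32 and 9.48 in WT, and 9.54, 9.44 and 9.44 then 10.08, 9.83 and 9.96 in sgs1Δ. Of 32 genes and probes of glycolysis and gluconeogenesis, only the hexose transporter gene HXT5 was called, at 0.55 with an SE of 0.124 (adjusted p = 0.0497). PDR12 lost its call without WT control 1 or 2, WT tangeretin 2 or sgs1Δ tangeretin 1, at 0.64 to 0.71. FIT2 lost it without any of these or sgs1Δ control 3, at 0.60 to 0.73, and HXT5 kept it only without WT control 3 or sgs1Δ control 2, at 0.49 to 0.60, and in 6 of 12 processing alternatives.

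PBI2 had the lowest interaction. It encodes an inhibitor of the vacuolar proteinase B that is also needed for vacuole fusion. It read 8.56, 8.49 and 9.23 on WT control arrays and 9.69, 9.85 and 9.91 on WT tangeretin arrays. In sgs1Δ it read 9.89, 9.93 and 10.13 in control and 8.74, 9.22 and 9.78 with tangeretin. Treated arrays were all higher in WT and all lower in sgs1Δ, and arrays within a group were up to about 1 log2 unit apart. The interaction was -1.79 with an SE of 0.318 (adjusted p = 0.018), a 3.47-fold ratio. The other 10 genes of the list of vacuolar proteases and their inhibitors were not called. The proteinase B gene PRB1 had 0.17 and the proteinase A gene PEP4 had 0.27.

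PBR1 followed the same course. It read 8.98, 8.89 and 9.15 then 9.66, 9.84 and 9.93 in WT, and 9.51, 9.36 and 9.69 then 8.67, 9.05 and 9.31 in sgs1Δ, without overlap in either strain. The interaction was -1.32 with an SE of 0.206 (adjusted p = 0.0139). Its call was lost only without WT control 2, and its interaction was -1.47 to -1.15 over the 12 omissions. PBI2 lost its call without WT control 1 or 2, WT tangeretin 2 or 3, sgs1Δ control 3 or sgs1Δ tangeretin 2, at -2.06 to -1.54.

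HO encodes the endonuclease that starts mating type switching, and here it is also on the plasmid, behind the GAL1 promoter. Its log2 level was 8.02, 8.06 and 8.19 on WT control arrays and 8.43, 8.73 and 8.53 on WT tangeretin arrays. In sgs1Δ it was 8.65, 8.37 and 8.54 in control and 7.53, 7.93 and 8.05 with tangeretin. Treated arrays were all higher in WT and all lower in sgs1Δ. The interaction was -1.16 with an SE of 0.185 (adjusted p = 0.0141), and the call was lost without WT control 2 or WT tangeretin 2, at -1.26 to -1.01 over the omissions. The other 9 genes of the galactose list were not called: GAL1 had 0.34 (adjusted p = 0.25) and GAL10 had 0.33. The plasmid's marker gene TRP1 had -0.04 (adjusted p = 0.907).

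VPS53 and RGP1, genes of vesicle traffic at the Golgi, were called in the lower direction. VPS53 encodes a subunit of the GARP complex, which tethers vesicles returning from endosomes, and RGP1 encodes part of the exchange factor that activates the GTPase Ypt6. VPS53 read 8.68, 8.72 and 8.80 then 9.05, 9.24 and 9.31 in WT, and 9.23, 8.95 and 9.10 then 8.37, 8.59 and 8.78 in sgs1Δ. The responses, a rise of 0.47 in WT and a fall of 0.51 in sgs1Δ, both passed the test. The interaction of VPS53 was -0.98 with an SE of 0.161 (adjusted p = 0.0146).

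RGP1 was dim, undetected on 1 WT control array, and read 6.62, 6.20 and 7.05 then 7.34, 7.44 and 7.73 in WT, and 7.45, 7.56 and 7.48 then 6.95, 7.09 and 7.46 in sgs1Δ. Its interaction was -1.21 with an SE of 0.259 (adjusted p = 0.0407). Of 12 tested genes of this group the 2 were called lower, against 0.603% of all features, and none higher, with a median of -0.132. RIC1, the partner of RGP1, had 0.36, and the GARP genes VPS51, VPS52 and VPS54 had -0.03, -0.29 and -0.21. VPS53 lost its call without WT control 1 or 2 or WT tangeretin 2, at -1.08 to -0.88. RGP1 kept it only without WT control 3, WT tangeretin 1, sgs1Δ control 2 or sgs1Δ tangeretin 3, at -1.42 to -1.0, and in 6 of 12 processing alternatives.

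CTR1, the gene of the high-affinity copper transporter, was the called member among 11 copper genes and probes. It read 11.58, 11.55 and 11.60 then 11.64, 11.83 and 11.92 in WT, and 9.95, 10.13 and 9.93 then 9.47, 9.24 and 9.38 in sgs1Δ. Treatment thus took a transcript that was already low in sgs1Δ further down, by 0.64. The interaction was -0.86 with an SE of 0.137 (adjusted p = 0.0141), and the call was lost without WT control 2 or WT tangeretin 2, at -0.94 to -0.80. MAC1, which encodes the copper-sensing activator of CTR1, had 0.31, and FRE1, a reductase gene, had -0.82 (adjusted p = 0.294).

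Of the 18 genes on the list headed mitosis, HST3 and MIH1 were called lower and CIP1 higher, and the median was -0.124. Being on this list does not show that a gene's product acts in mitosis. Over all features the shares called lower and higher were 0.603% and 0.618%. HST3 encodes a sirtuin that deacetylates histone H3. It read 10.61, 10.57 and 10.58 then 10.85, 10.92 and 10.82 in WT, and 11.19, 10.74 and 10.99 then 10.49, 10.44 and 10.51 in sgs1Δ, without overlap in either strain. Its interaction was -0.77 with an SE of 0.143 (adjusted p = 0.0242). MIH1, the gene of the phosphatase that activates Cdc28 at mitosis, lay between 9.53 and 9.70 over the 6 WT arrays and fell by 0.72 in sgs1Δ, from 9.58, 9.29 and 9.40 to 8.81, 8.65 and 8.65. Its interaction was -0.67 with an SE of 0.132 (adjusted p = 0.0292). CDC12, a septin gene, had -0.75 (adjusted p = 0.0615). HST3 lost its call without WT control 1 or 2, WT tangeretin 2, sgs1Δ control 3, or sgs1Δ tangeretin 1 or 2, at -0.89 to -0.66, and MIH1 kept it only without WT control 3, WT tangeretin 1 or sgs1Δ control 2, at -0.74 to -0.60.

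Among the remaining large negative interactions, the WT response passed the test for all named in this paragraph but RPN3, for which neither response passed. No sgs1Δ response among them passed. The fitted sgs1Δ responses were -0.46 for RPN3, -0.34 for SRF1, -0.33 for ARP7, -0.21 for MRPS18, -0.17 for AKR2 and -0.12 for MRP4. YET1, an endoplasmic reticulum protein gene, rose by 1.14 in WT and moved by 0.02 in sgs1Δ, an interaction of -1.12 with an SE of 0.246 (adjusted p = 0.0449). RPN3, a subunit gene of the proteasome lid, had -1.12 with an SE of 0.241 (adjusted p = 0.0412) and was the called member of 31 proteasome genes, whose median was -0.119. MRPS18 and MRP4, genes of the small subunit of the mitochondrial ribosome, rose in WT by 0.84 and 0.90 and had interactions of -1.05 (adjusted p = 0.0353) and -1.02 (adjusted p = 0.0315). AKR2 had -1.07 (adjusted p = 0.0395), SRF1 had -1.0 (adjusted p = 0.0379) and ARP7, an actin-related subunit gene of chromatin remodelling complexes, had -0.92 (adjusted p = 0.0368). SRF1 was detected on 1 WT control array.

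Most omissions of 1 array ended these lower calls. AKR2, RPN3, SRF1 and ARP7 kept theirs only without WT control 3, WT tangeretin 1, sgs1Δ control 2 or sgs1Δ tangeretin 3, with interactions from -1.26 to -0.80 between them. MRPS18 and MRP4 kept theirs only without WT control 3 or sgs1Δ control 1, control 2 or tangeretin 3, at -1.23 to -0.90, and YET1 only without WT control 3, WT tangeretin 1 or sgs1Δ tangeretin 3, at -1.30 to -0.98.

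No gene of the DNA repair lists had a called interaction. Outside the lists, MHF2, which encodes a histone-fold partner of the Mph1 helicase and is named after its values were seen, was called lower at -0.75 (adjusted p = 0.0379). Of 17 genes of RecQ partners and structure-selective nucleases, limma called none. YEN1 alone had an unadjusted p under 0.05, and it was undetected in a whole group, as were SRS2, TOP3 and SGS1. RMI1, the Sgs1 partner, had -0.27 with an SE of 0.170 (adjusted p = 0.445), and MUS81, a nuclease gene of a route that backs up Sgs1, had 0.11 with an SE of 0.139 (adjusted p = 0.734). No interaction is given for SGS1 and TOP3. The raw intensity of TOP3 was 3 to 38. Of 17 homologous recombination genes, none was called by limma and none had an unadjusted p under 0.05, and their median interaction was -0.0593.

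Genes that DNA damage induces had no called interaction either. Of 21, limma called none, and the median was 0.0891. An unadjusted p under 0.05 was found for 4 of them, against 16.3% of all features. RNR3, a ribonucleotide reductase gene that rises strongly after damage, had 0.52 with an SE of 0.202 (adjusted p = 0.229). It read 8.55, 8.54 and 8.24 then 8.02, 7.98 and 7.80 in WT, and 8.19, 7.96 and 7.54 then 8.02, 7.88 and 7.83 in sgs1Δ. HUG1, another gene of the checkpoint response, had 0.39 with an SE of 0.172 (adjusted p = 0.287). Among 16 checkpoint genes and 30 replication genes none was called, and 2 and 4 had an unadjusted p under 0.05. A missed threshold does not show that these responses were equal.

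Several lists without a call lay off the median of all features. Among 42 ribosome biogenesis genes the median was -0.227 and 12 lay above 0, against 3391 of all 6468 features. GAR1, which serves in RNA pseudouridylation, was lowest at -0.71 (adjusted p = 0.0568). BRX1 and UTP25, which also serve in ribosome biogenesis but are not on the list, were called lower and are named after their values were seen, at -0.76 (adjusted p = 0.0278) and -0.68 (adjusted p = 0.0435). The 18 genes of G1 and S phase had a median of -0.173, and of 10 histone genes and probes 1 lay above 0, with a median of -0.156. The general stress and sulfur lists lay on the other side. No test of a list as a whole was made. In limma 12 of the 42 ribosome biogenesis genes had an unadjusted p under 0.05, against 16.3% of all features.

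**Figure D3:**
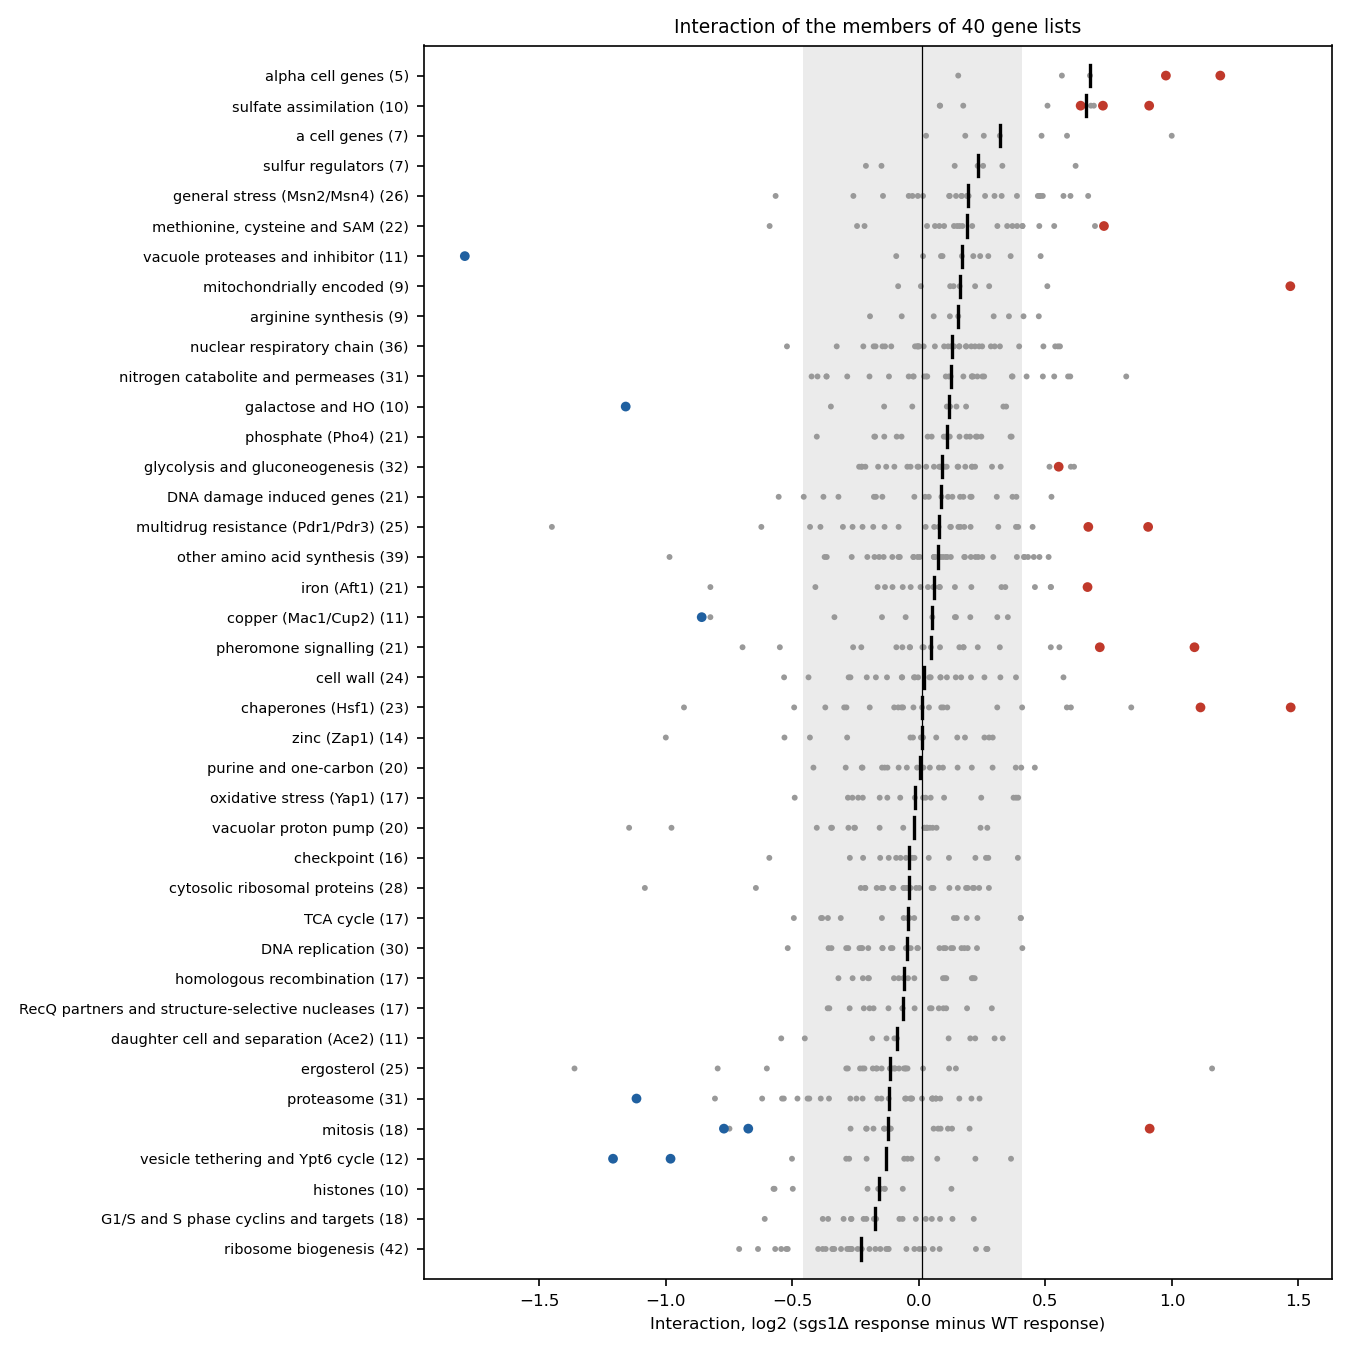
Interaction (log2, x axis) of every tested member of 40 gene lists, 1 row per list with its number of members in brackets; black ticks are list medians, the vertical line is the median of all 6468 features (0.0138), the grey band spans their 5th to 95th percentile, and red and blue points are called higher and lower. The α-cell and sulfate assimilation lists have the highest medians (0.676 and 0.659) and the ribosome biogenesis list the lowest (-0.227).

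**Figure D4:**
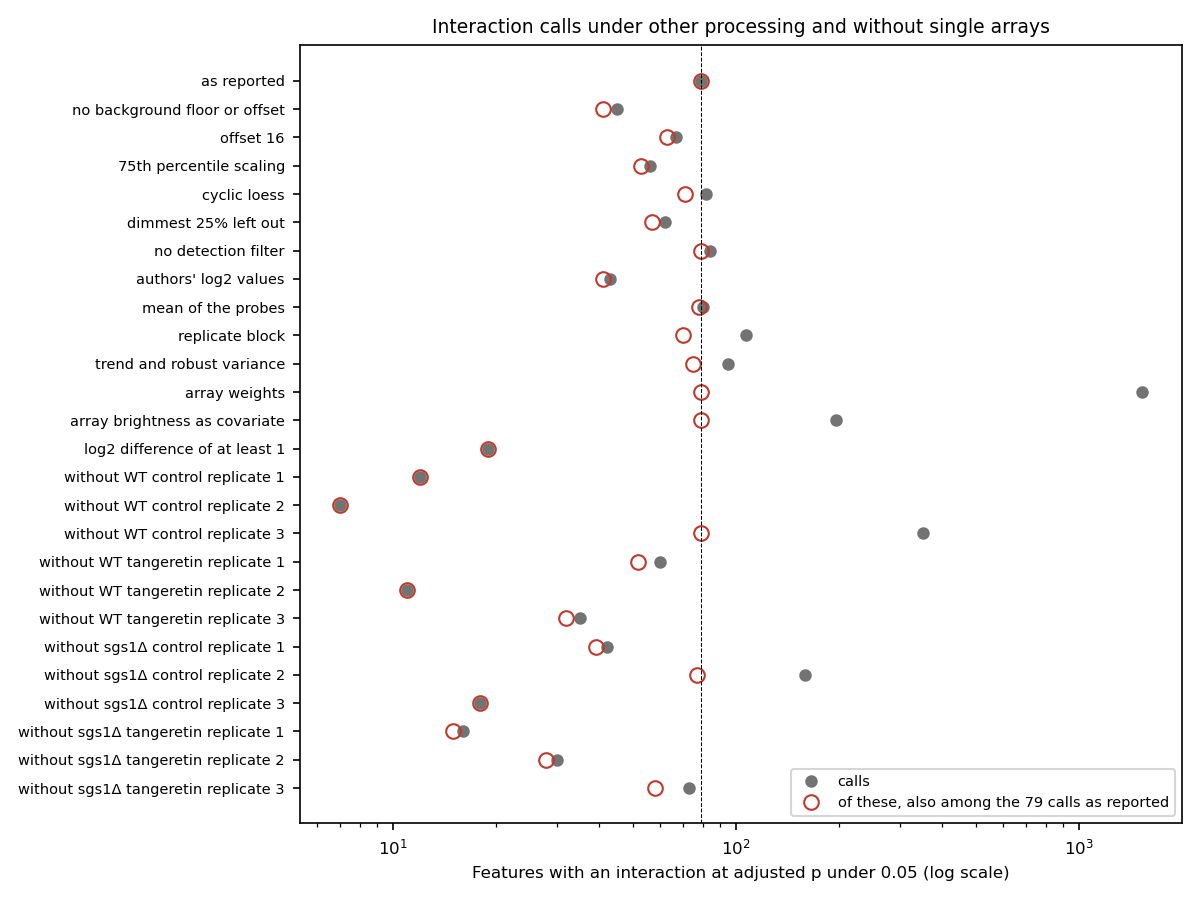
Number of features with a called interaction (x axis, log scale) as reported (dashed line, 79), under other processing and without each single array; grey points are all calls and open red circles are those among the 79. Without WT control 2 the count was 7, and without WT control 3 it was 352 and still held all 79.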

How the data were processed

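RNA was measured on 12 arrays, 3 per group, and groups were taken from the sample labels. The raw table holds, per the file headers, a raw intensity for each spot of each array; the 9800 spots include 2158 printed empty, whose median of 0 to 1 per array shows that background had been subtracted before deposit. A deposited flag (unit other) of 0 was read as detected. The value table holds log2 values normalized by the authors; its method and the scanner software are not given in the sources used here, and it served as an alternative. From the raw intensities, spots of a probe were averaged, negative values were raised to 0, and 50 was added before quantile normalization and log2 (limma 3.58.1, R 4.3.3). Control spots and 301 of 6958 probes detected on fewer than 3 arrays were left out. For the 183 genes with several probes the brightest stood for the gene, leaving 6468 features. Of the probes, 6750 had a locus, 5911 were named through RefSeq R64, and 325 that match several genes kept combined names. The other features kept the file's names.

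1 model held all 4 groups (lmFit and eBayes, 8 residual degrees of freedom, 13.63 after moderation, no covariates). The interaction is (sgs1Δ tangeretin minus sgs1Δ control) minus (WT tangeretin minus WT control). P-values are two-sided with the Benjamini-Hochberg adjustment over all features, and errors are SE from this fit with 3 arrays per group, a number that limits the precision. The named genes are the 12 highest and 12 lowest called interactions, up to 4 called members per list, genes called in opposite directions in both strains, 11 genes followed whatever their values (HO, GAL1, TRP1, SGS1, TOP3, RMI1, MUS81, PDR5, SNQ2, HUG1 and RNR3), and the numbered neighbours of unnamed frames; other genes were named after their values were seen. A gene undetected, or at the scanner ceiling of 65000, on every array of a group got no interaction value. The comparison, the 40 gene lists and these rules were chosen with earlier results of these data known. The fit was run on simulated data with known interactions and independent normal noise for each gene and array. Noise shared by the genes of an array was not simulated, so the error rate under such noise was not tested. Alternatives were other offsets, 75th percentile scaling, cyclic loess, filters on dim or undetected probes, the mean over probes of a gene, the authors' log2 values, replicate number as a block, trend and robust variance, array weights, array brightness as a covariate, a minimum log2 size and omission of each array.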

Additional observations from a re-analysis of the deposited data

Results flagged for a closer look

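Each result here was singled out because the tangeretin responses of the 2 strains differed by the test of the difference itself, which is the interaction of the report. There were 79 such features, and the values are those of the named genes among them. Groups of 3 arrays are too small for the test of a single deviating array, which was not made.

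Among genes with a higher response in sgs1Δ, the interactions on the log2 scale were 2.14 for YGL072C, 1.47 for HSP30 and ATP8, 1.26 for YOR053W, 1.24 for ITT1 and 1.19 for MF(ALPHA)2. They were 1.11 for MGA1 and YML099W-A, 1.09 for AGA1, 0.98 for SAG1, 0.94 for DPA10, and 0.91 for CIP1, MET5 and TPO2. Smaller ones were 0.73 for MET2 and MET3 and 0.71 for FIG2. SUL2 had 0.64 and HXT5 had 0.55. PDR12 and FIT2 each had an interaction of 0.67.

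Among genes with a lower response in sgs1Δ, they were -1.79 for PBI2, -1.32 for PBR1, -1.21 for RGP1, -1.16 for HO, and -1.12 for RPN3 and YET1. AKR2 had -1.07, MRPS18 -1.05, MRP4 -1.02, SRF1 -1.0 and VPS53 -0.98. The smallest among the named genes were -0.92 for ARP7, -0.86 for CTR1, -0.77 for HST3 and -0.67 for MIH1.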

How the results depend on the processing

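The 79 interaction calls (40 higher, 39 lower, 50.6% higher) kept their sign under every alternative in which they were tested. As they were chosen for interactions large against their SE, this is no independent support. Without offset there were 45 interaction calls (16 lower, 64.4% higher), with the authors' log2 values 43 (15 lower, 65.1% higher), and with 75th percentile scaling 22 of 56 were lower (60.7% higher). Array weights gave 1525 (783 higher, 742 lower), array brightness as a covariate 196 (98 each way, all 79 among them) and a log2 size of at least 1 gave 19 (9 higher, 10 lower). The WT response was called for 39 of the 79, and for 16 of 45 without offset, 15 of 43 with the authors' values, 1041 of 1525 with weights, 5 of 196 with brightness and 14 of 19 with the minimum size. The sgs1Δ response was called for 30 of the 79, and in the same order for 18 of 45, 18 of 43, 573 of 1525, 17 of 196 and 5 of 19. Omitting single arrays gave 7 to 352 interaction calls, 7 to 164 higher, 0 to 188 lower, 2 to 284 with the WT and 5 to 100 with the sgs1Δ response called. The 0 lower calls by limma came without WT control 2. With replicate number as a block there were 107 interaction calls (62 lower, 68 with the WT response called), which held 70 of the 79. Deviations of arrays with one number correlated at -0.412 to 0.503, and 9 of 18 pairs were over 0.1. Their median was 0.084, against -0.0475 for arrays of different groups with different numbers. As these correlations ran in both directions, they do not decide whether the numbers paired the arrays. Of the 36 named called genes, 16 kept their call in all 12 processing alternatives. MET3, RGP1 and HXT5 kept it in 6, AKR2 and MRPS18 in 7, RPN3 and SRF1 in 8, CIP1, DPA10, MET2, MRP4 and YET1 in 9, ARP7 and FIG2 in 10, and ATP8, HO, ITT1, SUL2, YML099W-A and YOR053W in 11. Testing every probe, chosen after seeing the data, gave 78 calls. The causes were not tested.

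Signs turned only for uncalled genes. VHS3 went from 0.00 to -0.06 with 75th percentile scaling, -0.01 with loess and -0.19 with weights, and ran from -0.14 to 0.11 over the omissions of 1 array. HSF1 went to 0.02 with weights. Over the omissions TRP1 ran from -0.11 to 0.02, above 0 without WT control 2, sgs1Δ control 2 or sgs1Δ tangeretin 2, and SNQ2 ran from -0.03 to 0.19, below 0 without WT tangeretin 2 and at 0.00 without sgs1Δ control 2. Calls made up 1.36% of the dimmest 1617 features and 0.866% of the brightest 1617.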

Other observations

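Some genes of mitochondrial ribosomal proteins, RNA polymerase I and the CCT chaperonin were called lower. The groups described here were chosen after their values were seen. Of 70 mitochondrial ribosomal protein genes, 3 were called lower, where 0.603% of all features were, and none higher: MRPS18, MRP4 and MRP10, the last at -0.62 with an SE of 0.14 (adjusted p = 0.0497 in limma). In all, 49 of the 70 lay below 0 and their median interaction was -0.116. Of 7 RNA polymerase I subunit genes, RPA14 was called lower at -0.76 with an SE of 0.154 (adjusted p = 0.0358), and all 7 lay below 0 with a median of -0.269. Among 8 genes of the CCT chaperonin, which folds actin and tubulin, CCT2 was called lower at -0.73 with an SE of 0.136 (adjusted p = 0.0256), and the median was -0.151.

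A few interactions were large but not called, and 1 or more of their arrays stood apart. RCR1 had 2.15 with an SE of 1.27 (adjusted p = 0.423): its log2 level was 5.92 on WT tangeretin 3 and 10.75 to 10.93 on the other WT tangeretin arrays. TIM21 had -1.66, with 6.72 on sgs1Δ tangeretin 1 and 11.60 to 11.94 on the 11 other arrays. IDI1 had -1.36, with 6.46 on WT control 2 and 10.56 to 11.24 elsewhere. GTA1 had 2.07, with 5.64 to 5.76 on WT control 2 and sgs1Δ control 1 and 2 and 11.33 to 11.67 on the 9 others.

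Genes of chromosome II were higher in sgs1Δ than in WT by a median of 0.733 on the log2 scale in control and 0.679 under tangeretin. Their median interaction was -0.00452 over 402 features. In the other chromosomes the median interaction lay between -0.0326 and 0.0314.

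The probes of RPL24B, a gene of a cytosolic ribosomal protein, differed in brightness. The brightest was at the scanner ceiling, and no interaction is given for it. The second probe, chosen after seeing the data, had -1.31 with an SE of 0.256 (adjusted p = 0.0291), with responses of 0.95 in WT and -0.37 in sgs1Δ.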
